A study of Mus musculus with 18 samples.

Results

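This account covers 200 probes whose signal in whole mouse testis stayed high from E12.5 to P14 and was lower at both P21 and adulthood. They are 200 of 37820 probes on the array, and 200 of the 34232 probes whose identifier starts with ASMM9PARTA. Members were chosen by their measured values. The median of the 3 arrays of a stage was taken for each probe. A probe was kept when its medians at E12.5, E15.5, P7 and P14 were all at least 9 and lay within a range of 1 (log2 signal, where a difference of 1 is 2-fold). Its score was the lowest of these 4 medians minus the higher of the P21 and Adult medians. The score had to be at least 1, and the 200 highest scores were taken. The fall after P14 is therefore what chose the members, and it is described without a test.

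The series follows lncRNAs and mRNAs through development of the male germline on 18 one-colour arrays. Each array was hybridised with Cy3-labelled cRNA of whole testis, made by random priming after removal of ribosomal RNA. The groups were E12.5 and E15.5 (embryonic days), P7, P14 and P21 (postnatal days) and Adult, each with replicates 1 to 3. The labels used here give no strain, genotype, adult age or treatment, and they do not say whether replicates came from separate animals, so p-values here reflect the variation between arrays of a stage, and that variation may be technical.

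As background, the testis holds somatic cells, among them Sertoli cells that line the cords, steroid-producing Leydig cells and peritubular cells, together with the germ cells. The number of germ cells per somatic cell grows after birth as spermatogonia multiply, enter meiosis and form spermatids, so that in the adult most cells of the testis belong to the germline. In whole tissue, fewer cells of a type and less RNA per cell cannot be told apart. The identifiers matched no gene table used here, so the genes, cell type markers and sequences behind the members are not given. Individual members are called by their rank in score, and identifiers are printed for ranks 1 and 2 only.

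Loss after P14 at both later stages was one of several courses among bright, level probes. Of the ASMM9PARTA probes, 4104 were at least at 9 and within a range of 1 from E12.5 to P14, and they are called level probes below. Of these, 728 (17.7%) were lower by at least 1 at both P21 and Adult, 94 (2.29%) were higher by at least 1 at both stages, and 864 (21.1%) stayed within a range of 1 over all 6 stages. The remaining 2418 (58.9%) followed none of these courses. The 200 members are the part of the 728 with the largest loss. By the same criteria 5 of 107 level probes with lincRNA in the identifier were lost by at least 1, as were 5 of 44 level CUST probes and 7 of 68 level probes named by a sequence accession. The score of member 200 was reached by 0 of these lincRNA probes, 1 of these CUST probes and 3 of those named by a sequence accession.

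The score ran from 1.94 to 3.64 with a median of 2.25, so that the lowest early median exceeded the higher late median by 3.83-fold to 12.5-fold. The cut-off fell in a dense stretch of scores. Ranks 196 to 200 had scores of 1.96, 1.95, 1.95, 1.94 and 1.94, and ranks 201 to 205, just outside, had 1.93, 1.93, 1.93, 1.93 and 1.92. The members near the cut-off are thus not separated from the probes that missed it.

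The members held their level through 4 stages and differed widely from each other in brightness. Taking the median over members of each stage's mean, E12.5 was at 11.52, E15.5 at 11.48, P7 at 11.34 and P14 at 11.23. P21 was then at 9.01 and Adult at 7.37 (log2 signal). At P14 the median member was above 80.8% of all probes. It was above 64.1% of them at P21 and above 44.8% in the adult. The member means ran from 3.70 to 12.85 in the adult, against 9.01 to 16.33 at P14. In the adult, 60 members still had a mean of at least 9, while 60 others lay below 6.53, the level under which the dimmest 25% of probes fall. No limit of detection is given for these values, so the size of a fall into that range is uncertain.

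**Figure D1:**
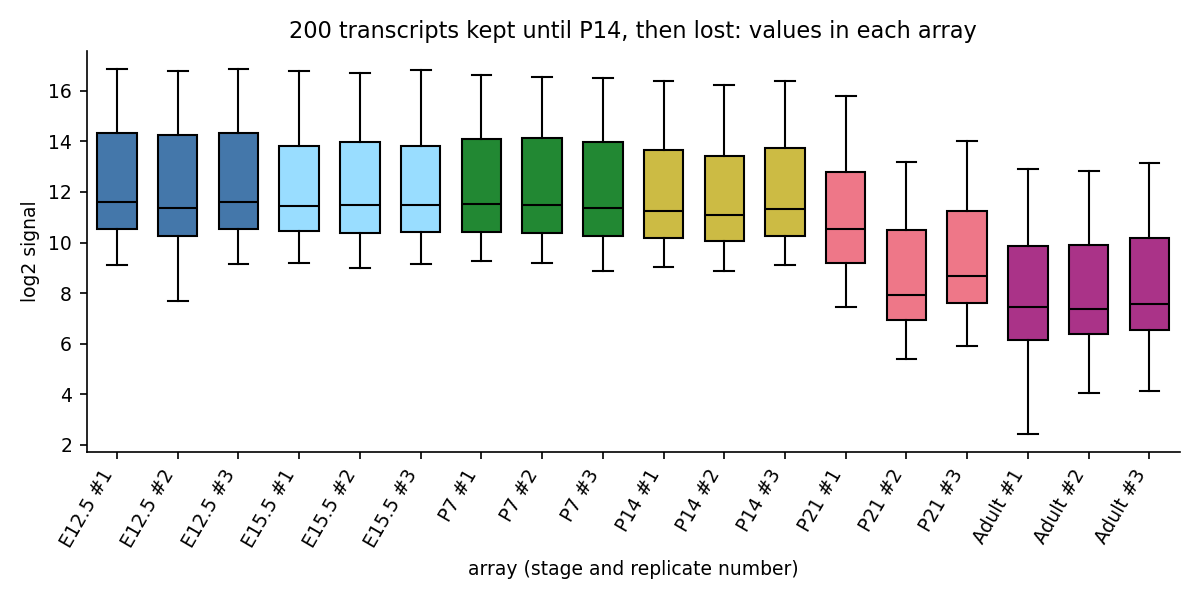
Log2 signal of the 200 members in each of the 18 arrays, in order of stage; boxes span the quartiles, the line is the median and whiskers reach the lowest and highest member. The 12 arrays from E12.5 to P14 have medians between 11.10 and 11.61, P21 replicate 1 is at 10.52, the other P21 arrays are at 7.95 and 8.69, and the Adult arrays lie between 7.36 and 7.58.

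Array by array, the median over members was 11.60, 11.35 and 11.61 at E12.5 and 11.43, 11.48 and 11.48 at E15.5. It was 11.51, 11.49 and 11.35 at P7 and 11.26, 11.10 and 11.32 at P14. At P21 it was 10.52, 7.95 and 8.69, and in the adult 7.46, 7.36 and 7.58. The 3 adult arrays were close to each other, whereas the 3 P21 arrays spanned most of the distance from P14 to adult.

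Before setting P21 against other stages, the arrays that stand apart need naming. P21 replicate 1 had a mean correlation over all probes of 0.936 with the other P21 arrays, and E12.5 replicate 2 had 0.931 with its own stage. The other arrays had means from 0.95 to 0.99 with their stage. The falls to P21, the step from P21 to adult and the order of the early stages are given below with and without these arrays.

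Within the range that the rule allowed, the stage medians of most members were not flat but sloped down slightly. The range over the first 4 stage medians had a median of 0.71 and ran from 0.16 to 1.00. The highest of the 4 medians was at E12.5 in 126 members, at E15.5 in 38, at P7 in 28 and at P14 in 8. The lowest was at P14 in 113 members, at E15.5 in 47, at P7 in 22 and at E12.5 in 18. The P14 median was below that at E12.5 in 173 members (86.5%), by a median of −0.54, against 52.8% of all level probes, where the median difference was −0.03. The score is counted from the lowest early median, and these values enter the rule, so this order carries no test. Without E12.5 replicate 2 the highest median was at E12.5 in 127 members. The P14 median was then below that at E12.5 in 173, against 52.1% of level probes. This setting could hardly change the order, so nothing is concluded from it. E12.5 replicates 1 and 3 lay close together (SD of their difference 0.23) and already largely set the E12.5 median. The early order with these replicates averaged was not tested.

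The slope was not spread evenly over the stages before P14. The median change over members was −0.20 in E15.5 against E12.5, 0.03 in P7 against E15.5 and −0.23 in P14 against P7 (differences of stage means, log2). Without E12.5 replicate 2 the first of these was −0.33. The P14 mean was below the P7 mean in 163 members (81.5%), against 58.6% of level probes. At P14, replicate 2 was the lowest array in 180 of the 200 members, and it was the lowest in 44.6% of level probes. The P14 arrays differed little in size, with a median SD over members of 0.14, against 0.08 for level probes.

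ASMM9PARTA049891, rank 1, had the highest score, 3.64. It was at 10.28, 8.71 and 10.19 at E12.5, and at 10.85, 10.39 and 10.50 at E15.5. It was at 10.28, 10.15 and 10.03 at P7, and at 10.48, 10.15 and 10.48 at P14. Its P21 arrays were at 9.33, 6.21 and 6.50, and its Adult arrays at 4.10, 5.07 and 5.71. Apart from E12.5 replicate 2 the values before P21 kept within 1 log2 unit, P21 replicate 1 lay above that E12.5 array, and the other P21 and all Adult arrays were far below. The adult mean was 4.96 ± 0.81, against 10.37 ± 0.19 at P14 (SD, n = 3 each), which is 42.4-fold lower in the adult.

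ASMM9PARTA030795, rank 2, had a score of 3.61. It was at 10.46, 10.64 and 10.59 at E12.5, and at 9.67, 9.89 and 9.93 at E15.5. It was at 10.09, 10.25 and 9.91 at P7, and at 9.65, 9.22 and 9.65 at P14. Its P21 arrays were at 8.41, 5.69 and 6.04, and its Adult arrays at 5.28, 6.12 and 4.28. Here all 6 later arrays lay below all 12 earlier ones, and the P21 and Adult arrays overlapped. The adult mean was 19.5-fold lower than the P14 mean.

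The flattest member before the loss was that of rank 7, with a range of 0.16 over the first 4 stage medians. It was at 10.48, 10.38 and 10.58 at P14, at 9.20, 6.26 and 7.12 at P21, and at 5.41, 4.95 and 5.79 in the adult. The brightest member, rank 78, showed the same order of P21 arrays at a far higher level. Its values were 16.40, 16.22 and 16.38 at P14, 15.79, 13.08 and 14.03 at P21, and 12.75, 12.54 and 12.84 in the adult. The dimmest, rank 198, was at 9.56, 9.27 and 9.49 at P14, at 9.36, 6.96 and 7.20 at P21, and at 6.74, 6.85 and 6.71 in the adult. In all 3 of these members P21 replicate 1 was the P21 array nearest to P14.

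Over the whole set the adult mean was below the P14 mean by a median of 12.3-fold, with a range from 4.38-fold to 56.6-fold. The fall reached 8-fold in 164 members and 16-fold in 64. At P21 the mean was already lower than at P14 by a median of 4.14-fold, from 2.81-fold to 8.16-fold, and the difference reached 4-fold in 115 members. Without P21 replicate 1 it ran from 4.05-fold to 16.4-fold and reached 4-fold in 200 members, and the median of P21 minus P14 was −2.72 on the log2 scale, against −2.05 with it. These falls chose the members and carry no test. The median of all probes also shifted, by −0.11 from P14 to P21, as did that of level probes, by −0.35. From P14 to adult, level probes fell too. Their median change was −1.03 inside and −1.15 outside a stretch of identifier numbers described below.

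In 176 members, all 6 arrays of P21 and Adult lay below all 12 earlier arrays, as they did for 12.9% of all probes and 32.3% of level probes. The 24 exceptions all had P21 replicate 1 reaching into the earlier values, and in 21 of them the lowest earlier array was E12.5 replicate 2. Without E12.5 replicate 2 the number that did not overlap was 191, and without P21 replicate 1 it was 200. The 3 Adult arrays lay below the 3 P14 arrays in all 200 members (44.2% of all probes, 74.9% of level probes). The 3 P21 arrays lay below those of P14 in 193 (29.4% of all probes, 47.4% of level probes). The rule used these contrasts, so nothing is read from the counts.

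**Figure D2:**
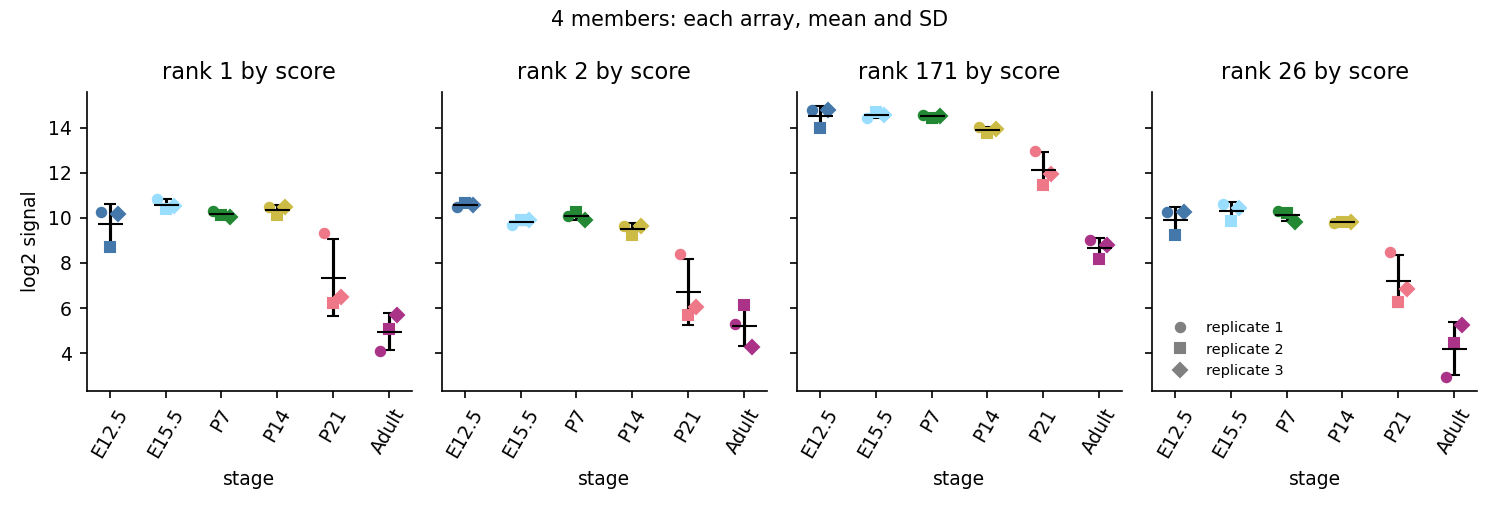
Log2 signal by stage for ranks 1 and 2 by score and for ranks 171 and 26, with the largest differences between adult and P21 with all arrays; symbols are the 3 arrays of a stage, dashes and bars the mean and SD. In each panel P21 replicate 1 is the highest of the P21 arrays, and in ranks 171 and 26 the Adult arrays sit clearly below every P21 array.

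The P21 arrays differed widely from each other in the members, in the same order in nearly every member. The rule took only the median of the P21 arrays, which was replicate 3 in 194 members. A low median favours probes in which replicates 2 and 3 are both low. The order is thus not independent of the choice of members and is given as a description. P21 replicate 1 was the highest P21 array in 200 of 200 members, and it was the highest in 2052 of 4104 level probes and 34.2% of all probes. The full order, replicate 1 above 3 above 2, held in 194 members (97.0%), against 45.8% of level probes and 25.9% of all probes. Among the 528 level probes lost by at least 1 that missed the 200, it held in 87.5%, so the order was also common in other lost probes. The SD over the 3 P21 arrays had a median of 1.15 in members, against 0.34 in level probes and 0.49 in all probes.

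For each member and each P21 array, the distance below the P14 mean was expressed as a share of the fall from the P14 mean to the adult mean. In P21 replicate 1 the median share was 23.2%, with 195 members under 50%. In P21 replicate 3 it was 66.0%, and in P21 replicate 2 it was 84.0%, with 155 members at 75% or more. A share of 100% or more, which is a level at or below the adult mean, was found for 31 members in replicate 2, 7 in replicate 3 and 0 in replicate 1. Members of ranks 108 and 113 were not below the P14 mean in P21 replicate 1, at 11.58 and 11.40, while their P14 arrays ran from 11.46 to 11.76 and from 11.19 to 11.49.

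**Figure D3:**
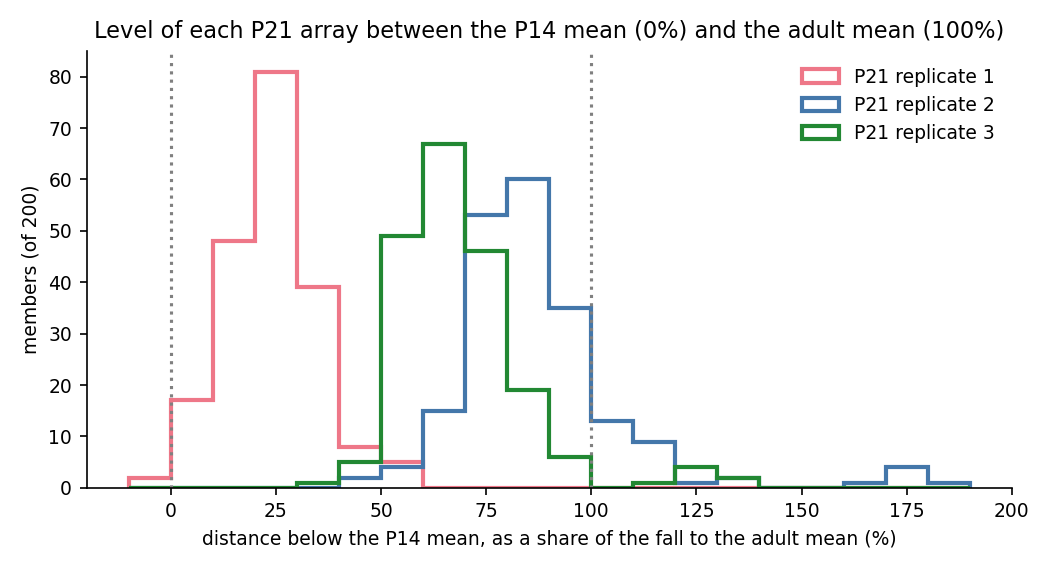
Number of members by the position of each P21 array between the P14 mean (0%) and the adult mean (100%), in steps of 10 percentage points. The 3 arrays form separate peaks, with medians of 23.2% in replicate 1, 66.0% in replicate 3 and 84.0% in replicate 2.

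Set against the P14 mean, P21 replicates 1, 3 and 2 differed by medians over members of −0.86, −2.35 and −3.08. Set against the adult mean, replicates 1, 3 and 2 were higher by medians of 2.76, 1.27 and 0.62. The labels used here describe the 3 P21 samples alike.

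The step from P21 to adult asks whether signal differed between the 2 later stages. The rule fixed no direction here, but both medians enter the score, which the P21 median set in 192 members and the Adult median in 8. The calls below are therefore not independent of the choice of members and are given as a description beside those of other probes. In the adult 156 members were lower than at P21 by at least 2-fold at an adjusted p below 0.05 (limma over all probes and 18 arrays, Benjamini-Hochberg), and 0 were higher. Of all probes, 20.9% were called lower and 10% higher by this rule. The remaining 44 members were not called. At an unadjusted p below 0.05 (limma), 173 members were lower and 0 higher. By this threshold 13025 of all 37820 probes were lower and 5662 higher. Of the 4104 level probes 2695 were lower and 255 higher, and of the 528 other lost probes 459 were lower and 1 higher.

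The median of adult minus P21 was −1.56 over members, against −0.78 over level probes and −0.33 over all probes, and it was below 0 in 194 members. In level probes 38.5% were called lower and 3.34% higher, and among the 528 lost probes that missed the 200, 71.2% were called, with 375 lower and 1 higher. The share called lower was 78% in members, near that in other lost probes, so it is not read as a property of the members. After quantile normalization of the values again, the median of all probes moved to −0.13 and that of the members to −1.40, with 134 members lower and 0 higher.

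This step depended on P21 replicate 1. Without it, 88 members (44%) were lower and 6 (3%) higher in the adult, against 20.3% and 9.06% of all probes. In the same fit 33.6% of level probes were lower and 3.51% higher. Of the 528 other lost probes 46.8% were lower and 0.568% higher, so the share of members called lower was near theirs. The median was −0.94 over members and −0.95 over those lost probes. All 88 were also among the 156 called with every array. The fit with all arrays pools the spread over 6 stages, but the members spread unequally. Their median SD was 1.15 at P21, 0.31 in the adult and 0.14 at P14. The p-values of that fit thus understate the spread at P21. For rank 1 the SE was 0.64 with all arrays and 0.87 with P21 and Adult alone. With only the 6 arrays of P21 and Adult fitted, 38 members (19%) were called lower and 0 higher, against 12.6% of all probes, 27.3% of level probes and 42.8% of the other lost probes called lower. At P21 and in the adult the arrays did not overlap in 130 members, with the Adult arrays below, as in 29.0% of all probes and 62.9% of level probes. They did not overlap with the Adult arrays above in 0 members, as in 13.8% of all probes. The Adult arrays lay below P21 replicates 2 and 3 in the same number of members, 130, against 41.8% of all probes and 70.1% of level probes, since replicate 1 was never the lowest P21 array.

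The member of rank 171 was lower in the adult than at P21 by the most. It was at 9.02, 8.17 and 8.80 in the adult, against 12.98, 11.48 and 11.94 at P21. At P14 it was at 14.01, 13.75 and 13.95. The Adult arrays lay far below all P21 arrays, and adult minus P21 was −3.47 (SE 0.33, limma) and −3.05 without P21 replicate 1. P21 replicates 1, 2 and 3 lay below its P14 mean by 17.6%, 46.3% and 37.4% of the distance from that mean to the adult mean.

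The member of rank 26 came next with all arrays. It was at 2.93, 4.46 and 5.24 in the adult, against 8.51, 6.28 and 6.86 at P21, again without overlap. Adult minus P21 was −3.01 (SE 0.55, limma), and −2.37 without P21 replicate 1. The member of rank 96 was at −2.79 with all arrays and at −2.48 without that array, a larger difference there than in rank 26. The adult values of rank 26 lie among the dimmest 25% of probes. The largest fall from P14 to adult was in the member of rank 6, which was at 2.45, 4.12 and 4.54 in the adult, against 9.54, 9.38 and 9.66 at P14, and it too ended in that dim range.

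The 2 members with the highest scores differed less between these stages than ranks 171 and 26, which were picked for the largest falls. High scores did not go with smaller differences in general. The median of adult minus P21 was −1.74 over the 100 highest scores, against −1.56 over all members. ASMM9PARTA049891 was lower in the adult by −2.39 (SE 0.64, limma) and by −1.40 without P21 replicate 1. ASMM9PARTA030795 was at −1.49 (SE 0.54, limma), and without P21 replicate 1 at −0.64, where it was not called. For that member the P21 arrays other than replicate 1, at 5.69 and 6.04, lay within the adult values of 4.28 to 6.12.

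The 156 members called lower and the 44 not called were set side by side. The median of stage means at E12.5 was 11.48 in the 156 and 12.14 in the 44. At P14 it was 11.16 and 11.54. At P21 it was 8.90 and 9.43, and in the adult 7.30 and 8.46. The median share of the distance from P14 to adult was 22.6%, 80.6% and 63.3% in P21 replicates 1, 2 and 3 in the 156, and 32.2%, 107% and 84.3% in the 44. These values define the call and are given as a description.

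**Figure D4:**
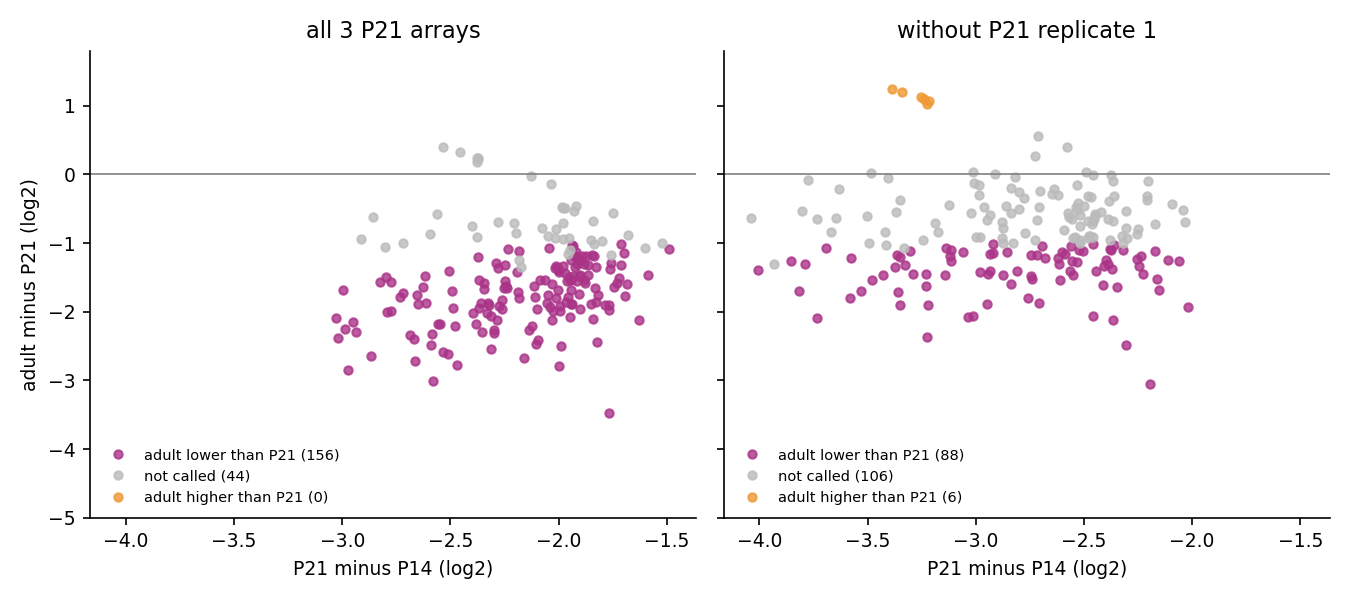
Adult minus P21 against P21 minus P14 for each member (log2 differences of stage means), with all P21 arrays on the left and without P21 replicate 1 on the right; colours show limma calls at an adjusted p below 0.05 and 2-fold. With all arrays 156 members are lower in the adult and none higher, and without replicate 1 there are 88 lower and a tight cluster of 6 higher.

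The 6 members called higher in the adult without P21 replicate 1 had near-identical profiles. They had ranks from 117 to 160 and were chosen here after their values were seen. The member of rank 117 was at 12.43, 12.64 and 12.77 in the adult, against 14.13, 11.13 and 12.04 at P21, and at 14.85, 14.62 and 14.97 at P14. The Adult arrays were above P21 replicates 2 and 3 but below replicate 1. Over the 6 members, adult minus P21 without replicate 1 ran from 1.02 to 1.24, and with it from 0.18 to 0.39. Their profiles differed from each other by a root mean square of 0.03 to 0.12 over the 18 arrays.

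Other members also had close neighbours within the set. Members were joined where their profiles differed by a root mean square below 0.2 over the 18 arrays, directly or through further members. Pairs within a group could thus differ by more, by up to 0.62 in the group of 10 and 0.36 in the group of 8. This gave 7 groups with 32 members in all, of 10, 8, 6 and, in the other 4, 2 members. The group of 10 averaged 15.09 at P14, 13.18 at P21 and 11.80 in Adult arrays, and the group of 8 averaged 15.69, 13.80 and 12.54. The group of 6 is the set described above, at 14.81, 12.39 and 12.66. Counting 1 member per group leaves 175 profiles, of which 139 were lower in the adult than at P21 and 0 higher, and without P21 replicate 1 87 were lower and 1 higher. Close neighbours were not particular to the members. A neighbour below 0.2 among all probes was found for 19.5% of members, 33.9% of level probes and 16.5% of all probes. Whether such probes share a target was not tested, since the probe sequences are not used here.

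Bright members came mostly from one stretch of identifier numbers. The number after ASMM9PARTA was at least 8000 and below 14000 in 58 members (29.0%), a stretch chosen after the values were seen. It held 11.8% of all ASMM9PARTA probes, 25.5% of level probes and 26.1% of the 728 lost probes, so its share of members was near its share of bright, level probes in general. Of the 50 brightest members 41 had such a number, against 17 of the other 150. Level probes in the stretch were bright too, with a median of stage means of 15.56 at P14, against 12.23 for those outside it. The split by brightness is therefore not read as a trait of the members. What the numbers stand for is not given in the sources used here.

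**Figure D5:**
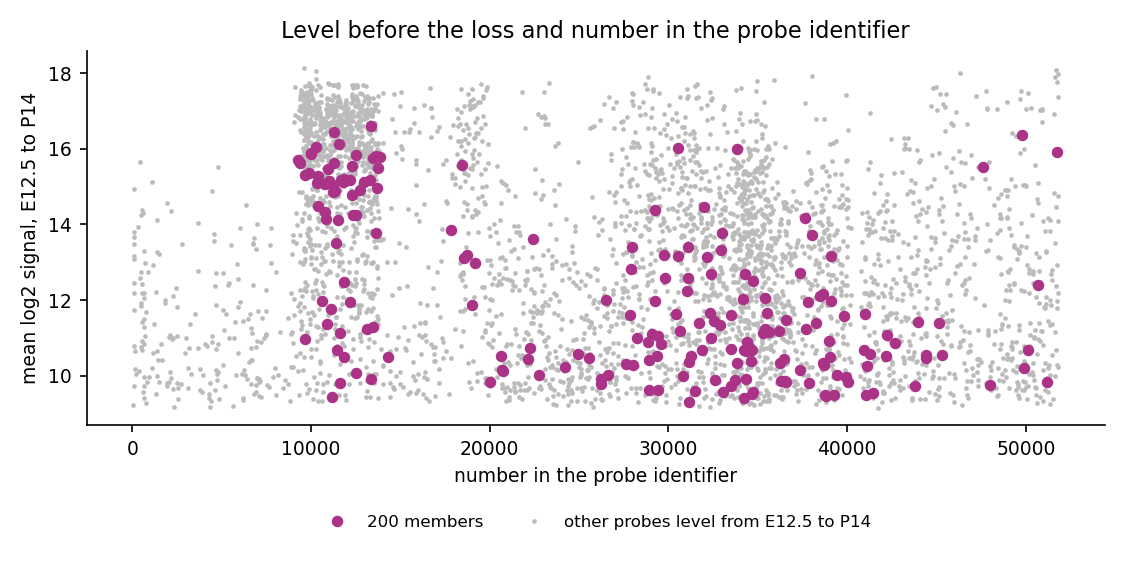
Mean log2 signal from E12.5 to P14 against the number in the probe identifier for the 200 members and the other level probes. From 8000 to 14000 the members gather near 15, together with many other level probes, and elsewhere most lie lower.

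The rule used both the early level and the size of the fall, so the levels by brightness are a description. Members in the stretch from 8000 to 14000 had a median of stage means of 14.80 at P14, 12.55 at P21 and 11.74 in Adult arrays. The other 142 had 10.62, 8.51 and 6.93. The median of adult minus P14 was −3.38 in the stretch and −3.84 outside it. From P21 to adult, 40 of 58 in the stretch and 116 of 142 outside it were called lower, and without P21 replicate 1 these counts were 16 and 72, with 6 and 0 called higher. In 4 groups of 50 members from dim to bright, the median of adult minus P14 was −3.78, −3.77, −3.98 and −3.23. The brightest 50 started from early levels of 14.13 to 16.60 and the dimmest 50 from 9.40 to 10.40.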

How the data were processed

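Whole mouse testis was measured on 18 arrays, 3 at each of 6 stages. The submitters' processing notes name Agilent Feature Extraction, version 11.0.1.1, as the image reader. The authors deposited 1 value per probe and array, taken here as log2 signal from its range of 2.38 to 18.34; the sources used here state neither the log base nor the normalization or probe filter. Array medians ran from 7.80 to 8.00. Values were used as deposited, and the number of arrays limits the precision. The members and lists were chosen with earlier results of these data known.

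Adult was compared with P21 in a linear model with 1 mean per stage over all 37820 probes and 18 arrays (limma 3.58.1, R 4.3.3; lmFit and eBayes, 12 residual and 3.20 prior degrees of freedom). A call needed a Benjamini-Hochberg adjusted p below 0.05 and a change of at least 1. The fit was run on simulated data with the same spread at every stage. That run does not bear on the unequal spread of the members over the stages. Replicate numbers were not used to pair the stages in this fit. Same-numbered P21 and Adult deviations correlated at 0.09, 0.12 and 0.07, and differently numbered ones at −0.10 to 0.03. The same-numbered values were thus the higher ones, though all were small. Array weights were estimated gene by gene, since the default method did not converge. Members named by identifier were the 2 highest scores; a further 2, called higher in the adult, would have been named but there were 0. Members by rank were the 2 largest called falls from P21 to adult, those at the cut-off, and extremes chosen after their values were seen. No identifier matched the gene tables (0 matched), so marker lists were not run. Plots used matplotlib 3.10.9 in Python 3.11.15.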

Additional observations from a re-analysis of the deposited data

How the results depend on the processing

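Of 225 recomputed values, 195 kept the direction and call or stayed near the reported value, 21 moved further, 9 lost the call for a single member and none turned round. Near meant within 1.5-fold for a count, and for a median a shift below the SD between arrays. That SD was 1.33 for adult minus P21 and for P21 minus P14, so these medians could hardly count as moved. Some settings could not change a value at all, such as another p threshold for a median. The tally is therefore not a measure of stability. For membership, 728 probes had a score of at least 1, and 486 to 921 when single arrays were left out. Of the reported 200, 130 to 199 stayed among the highest scores when single arrays were left out, with 130 without E12.5 replicate 1, 133 without E12.5 replicate 3 and 157 without P21 replicate 2. With E12.5 replicates 1 and 3 (SD of their difference 0.23) averaged to 1 array (chosen after seeing the data), 131 stayed. An early range of at most 0.5 left 194 probes and 54 of the members, one of at most 1.5 gave 1220 and 93, and the 100 highest scores are by construction 100 of them.

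From P21 to adult, the members called lower numbered 88 to 183 and those called higher 0 to 6 when single arrays of these stages were left out, and all probes called 9869 to 13832. Leaving out both E12.5 replicate 2 and P21 replicate 1 gave 91 lower and 6 higher. With only P21 and Adult fitted, 38 members and 7588 probes were called, and with array weights 115 members were lower and 2 higher. The 100 highest scores held 83 lower, and all 728 held 531 lower and 1 higher. With the replicate number as a block, 157 members were lower and 0 higher, and no named call changed. At an adjusted p below 0.01, 113 were lower. The median of adult minus P14 over members was −3.63, −3.45 after quantile normalization again and −3.44 when arrays were centred on their medians. Without single arrays it ran from −3.71 to −3.51. The counts without P21 replicate 1 of members 4-fold lower at P21 and without E12.5 replicate 2 of the early order were chosen after seeing the data.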
